A study of Homo sapiens with 108 samples.

Results

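The RNA of 6 genes of the nuclear lamina and the inner nuclear membrane was followed across EZH2 inhibitor treatment: LMNB1, LMNB2, LMNA, LBR, TMPO and LEMD3. The genes were taken by symbol, with every probe set that the array's annotation pairs with one of them, a rule that uses no measured value. They make up 6 of the 19775 genes that the array measures with at least 1 probe set of their own, and 15 of the 41097 probe sets annotated to a single gene. TMPO had 5 of these probe sets, LMNA had 6, and LMNB1, LMNB2, LBR and LEMD3 had 1 each, and 0 of the 15 were shared with another gene. For TMPO and LMNA the brightest probe set, by its mean log2 level, stands for the gene unless another is named.

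The lamina is a meshwork of intermediate filaments that lines the inside of the nuclear envelope, gives the nucleus its stiffness and tethers inactive chromatin to the nuclear edge. B-type lamins (LMNB1 and LMNB2) keep a farnesyl anchor and stay at the membrane, whereas A-type lamins (LMNA) lose it and also occur inside the nucleus; A-type lamins are typically low in lymphoid cells. LBR, TMPO (the lamina-associated polypeptides 2) and LEMD3 (MAN1) are inner nuclear membrane proteins that bind lamins, chromatin or both. EZH2 is the catalytic subunit of Polycomb repressive complex 2, which methylates histone H3 at lysine 27, and EPZ6438 (tazemetostat) inhibits its enzymatic activity.

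The series measured total RNA from 4 established B cell lymphoma lines on Affymetrix expression arrays. Per the series text, a Y641 mutation of EZH2 is present in KARPAS_422, SUDHL6 and WSU_DLCL2 and absent from PFEIFFER. Each line was grown with DMSO, the solvent control, or with EPZ6438 at a dose named LCC or at 10xLCC for 2, 4 or 6 days, with 3 arrays (replicates A, B and C) in each of 36 groups. LCC was set separately for each line and the sources used here give no concentration, so equal dose names need not mean equal concentrations. No genetic change or second agent was added in any group. The labels do not say whether replicates were separate cultures, so the p-values measure the spread between these arrays, which may be technical. In bulk RNA, fewer cells of a kind and less RNA per cell cannot be told apart. Levels are given as log2 of the deposited intensity, and differences are on the same log2 scale with the standard error (SE) of a limma fit over the 27 arrays of a line. A change was called at a Benjamini-Hochberg adjusted p below 0.05 over all probe sets tested in that line.

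All 7 B cell marker genes had a median log2 level of at least 8.39 in every line. Of 5 T cell markers 3 to 4 per line reached a median of 6, with 1 of them at 13.39 in PFEIFFER, as did 1 of 5 myeloid markers in each line and 2 to 3 of 6 stromal, endothelial and epithelial markers, with 1 of those at 11.84 in PFEIFFER. The PFEIFFER array at LCC on day 6, replicate B, stood at a root-mean-square log2 distance of 0.708 from the mean of the other arrays of its group, and SUDHL6 under DMSO on day 2, replicate A, at 0.493, against line medians from 0.18 to 0.19. The log2 difference between 3 prime and 5 prime beta-actin control probe sets, a sign of RNA shortening, averaged 1.25 under DMSO, 2.37 at LCC and 2.25 at 10xLCC in KARPAS_422 on day 6 (n = 3 each), but -0.01, 0.01 and 0.03 on day 4. In SUDHL6 on day 6 it averaged -0.18 under DMSO and 0.34 at 10xLCC.

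The sequences just upstream of the start sites are shown for LMNB1, TMPO and LEMD3 because LMNB1 and TMPO, a B-type lamin and an anchor, were called lower on day 6 in 3 lines, and LEMD3, another anchor, in none. LBR, also an anchor called lower in 3 lines, is not printed, so the choice shows no trait of the genes that fell. RefSeq (GRCh38.p14) gave 10 start sites for the 6 genes. The 250 bases before the start are printed on the plus strand, 5' to 3', with capitals marking CCAAT or its reverse ATTGG and, in LEMD3, TTTCCCGC. The windows are chr5:126776886-126777135 for the second LMNB1 start, chr12:98515323-98515572 for TMPO and chr12:65169333-65169582 for LEMD3.
LMNB1: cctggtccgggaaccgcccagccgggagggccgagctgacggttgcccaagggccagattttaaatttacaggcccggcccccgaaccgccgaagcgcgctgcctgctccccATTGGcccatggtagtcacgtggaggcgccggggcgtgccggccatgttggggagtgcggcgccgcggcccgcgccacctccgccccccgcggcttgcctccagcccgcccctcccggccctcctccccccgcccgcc
TMPO: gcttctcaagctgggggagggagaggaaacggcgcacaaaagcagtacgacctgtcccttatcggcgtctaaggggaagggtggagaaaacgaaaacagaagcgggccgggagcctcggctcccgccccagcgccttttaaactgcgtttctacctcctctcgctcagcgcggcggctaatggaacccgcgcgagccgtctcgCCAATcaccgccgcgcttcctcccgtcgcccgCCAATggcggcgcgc
LEMD3: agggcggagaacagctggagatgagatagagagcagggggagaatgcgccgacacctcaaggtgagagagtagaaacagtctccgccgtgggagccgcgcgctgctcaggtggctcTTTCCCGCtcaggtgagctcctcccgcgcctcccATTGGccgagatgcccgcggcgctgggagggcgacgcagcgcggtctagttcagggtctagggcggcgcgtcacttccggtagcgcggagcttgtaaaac
The LMNB1 window printed held 1 CCAAT box, read on the reverse strand, and 4 GC boxes (GGGCGG), whereas the window of its first start held none of the motifs searched, and the TMPO window held 2 CCAAT boxes and 1 GC box. LEMD3 held 1 reverse CCAAT box, 1 TTTCCCGC and 2 GC boxes. Over both strands, CCAAT occurred in 32.0% of 35116 windows of this length, TTTCCCGC in 1.39%, TTTGAA in 13.3% and GGGCGG in 42.6%. LMNA had 1 CCAAT, 1 TTTCCCGC and 1 GC box before its first start and GC boxes alone before the other two. LBR had none of these letters, and LMNB2 had 1 TTTGAA and 1 GC box. A match describes these letters only and names no factor.

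At the higher dose on the last day, LMNB1, LBR and TMPO were lower in treated cells of all 3 lines with the Y641 mutation, and LMNB2 in 2 of them. On day 6 at 10xLCC, 4 of 6 genes fell in WSU_DLCL2 (LMNB1, LMNB2, LBR and TMPO), the same 4 of 6 fell in KARPAS_422, and 3 of 6 fell in SUDHL6 (LMNB1, LBR and TMPO). In SUDHL6 the actin difference differed between these groups (-0.18 against 0.34), and with it as a covariate 0 of 6 were called. The changes were then -2.07 for LMNB1 (adjusted p = 0.05), -0.28 for LBR (0.46) and -0.41 for TMPO (0.23). Without the covariate they were -0.95, -0.22 and -0.41. The actin values of the 2 groups did not overlap, which limits how well this fit can separate dose from RNA shortening. Over all probe sets tested, 19.6%, 17.6% and 26.6% fell in WSU_DLCL2, KARPAS_422 and SUDHL6, so the counts of genes that fell have a high background. In no line did a gene rise at this dose, judged by the probe set that stands for it. Over all probe sets, 14.7%, 16.8% and 20% rose in WSU_DLCL2, KARPAS_422 and SUDHL6 on day 6. PFEIFFER had 0 of 6 called, beside only 0.164% of all probe sets called in either direction. The median change of the 6 genes was -0.69 in WSU_DLCL2, -0.92 in KARPAS_422, -0.23 in SUDHL6 and -0.21 in PFEIFFER, beside medians over all probe sets of 0, -0.03, -0.11 and 0.01.

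**Figure D1:**
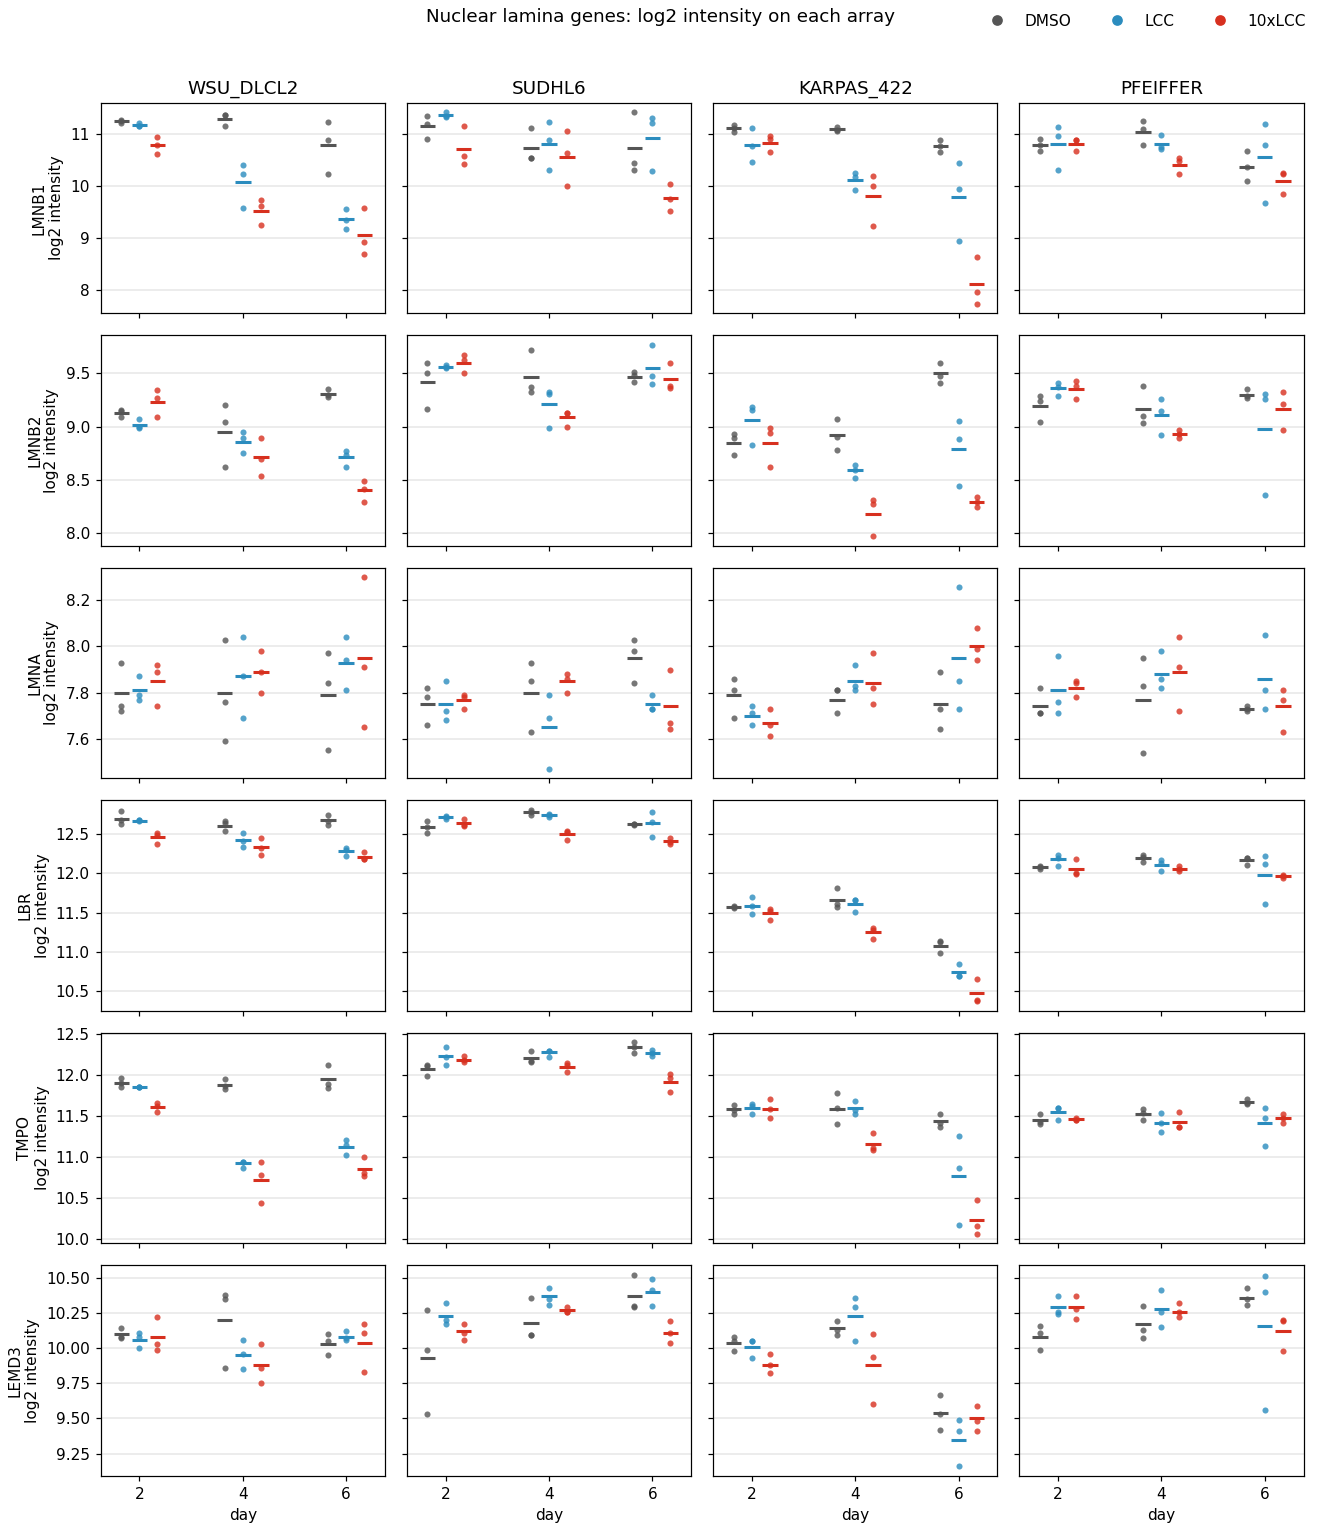
Log2 intensity of the 6 genes on every array (y axis) by day (x axis) in each line, with points for the 3 arrays of a group, coloured by dose, and bars for their mean. LMNB1 in KARPAS_422 falls from 10.64 to 10.87 under DMSO to 7.75 to 8.65 at 10xLCC on day 6, whereas LEMD3 overlaps between the same groups.

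LMNB1 encodes lamin B1, and its RNA (probe set 203276_at, chromosome 5, 126776623 to 126837020) moved most in KARPAS_422. On day 6 the 3 DMSO arrays of that line read 10.76, 10.64 and 10.87, the LCC arrays 9.95, 8.94 and 10.44, and the 10xLCC arrays 8.65, 7.75 and 7.98. Every 10xLCC array lay below every other array of the day. The difference from DMSO at 10xLCC was -2.63 (SE 0.26, n = 3), a 6.21-fold lower level (limma, adjusted p = 8.3e-09), and only 0.0157% of probe sets in that line had a lower change. With the actin difference as a covariate it was -2.6. The actin values of these groups did not overlap, at 1.02 to 1.46 under DMSO and 1.71 to 2.72 at 10xLCC. This limits how well that fit can separate dose from RNA shortening, whose part was not tested. On day 4 the actin difference averaged -0.01 under DMSO and 0.03 at 10xLCC, and LMNB1 was called lower. Day 4 gave 11.07, 11.13 and 11.05 under DMSO and 9.24, 10.19 and 10.0 at 10xLCC, a change of -1.27 (SE 0.26, adjusted p = 0.00069).

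In WSU_DLCL2, LMNB1 was also called from day 4. On that day the DMSO arrays read 11.14, 11.36 and 11.36, the LCC arrays 10.41, 10.23 and 9.57, and the 10xLCC arrays 9.73, 9.61 and 9.25, so that no treated array reached a control. The fall was 3.38-fold at 10xLCC (-1.76, SE 0.22, adjusted p = 4.1e-07), and on day 6 it was 3.28-fold (-1.71, SE 0.22, adjusted p = 5.4e-07). On day 6 DMSO gave 10.23, 11.23 and 10.88, LCC 9.34, 9.18 and 9.55, and 10xLCC 8.93, 9.58 and 8.69. The 3 LCC and 3 10xLCC arrays of that day overlapped.

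SUDHL6 gave a smaller and less certain change in LMNB1. On day 6 the DMSO arrays read 10.3, 10.43 and 11.41, the LCC arrays 10.28, 11.2 and 11.3, and the 10xLCC arrays 10.03, 9.75 and 9.53. All 10xLCC arrays were lowest, but the DMSO arrays differed by more than a log2 unit. The difference was -0.95 (SE 0.29, adjusted p = 0.0099), and without DMSO replicate C it was -0.6 with adjusted p = 0.11. With the actin difference as a covariate it was -2.07 with adjusted p = 0.05. On day 4 the change in SUDHL6 was -0.16 (SE 0.29), and on day 2 it was -0.43 (SE 0.29), neither of them called.

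In PFEIFFER, LMNB1 was not called at 10xLCC on any day. On day 4 the DMSO arrays of that line read 11.08, 11.24 and 10.79 and the 10xLCC arrays 10.23, 10.48 and 10.53, groups that did not overlap. The change of -0.62 (SE 0.25) had an adjusted p of 0.55. An exact test of 3 arrays against 3 cannot go below p = 0.1, and the share of all probe sets without overlap was not counted. On day 6 DMSO gave 10.66, 10.36 and 10.09 and 10xLCC gave 9.84, 10.25 and 10.22, which overlapped (change -0.27, SE 0.25). The change in PFEIFFER exceeded the mean change of the other 3 lines by 1.49 on day 6 (SE 0.32, adjusted p = 0.00016).

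LMNB2, lamin B2 (216952_s_at, chromosome 19, 2428166 to 2456959), fell on day 6 in KARPAS_422 and WSU_DLCL2. In KARPAS_422 on day 6 the DMSO arrays read 9.6, 9.48 and 9.41, the LCC arrays 9.05, 8.88 and 8.44, and the 10xLCC arrays 8.34, 8.24 and 8.29. The 3 groups did not overlap and followed dose, with a 2.31-fold fall at 10xLCC (-1.21, SE 0.13, adjusted p = 4.8e-08). In WSU_DLCL2 on day 6 DMSO gave 9.3, 9.35 and 9.28, LCC 8.73, 8.77 and 8.62, and 10xLCC 8.49, 8.29 and 8.41. These groups also stood apart, and the fall at 10xLCC was 1.88-fold (-0.91, SE 0.11, adjusted p = 3.2e-07). SUDHL6 on day 6 had 9.42, 9.49 and 9.51 under DMSO and 9.6, 9.36 and 9.38 at 10xLCC, with a change of -0.03 (SE 0.12). PFEIFFER on day 6 had 9.35, 9.29 and 9.27 against 8.97, 9.33 and 9.21 (change -0.14, SE 0.17). The groups of SUDHL6 and of PFEIFFER overlapped.

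Under DMSO, LMNB2 was itself not steady in KARPAS_422. Its level rose by 0.65 from day 2 to day 6 (SE 0.13, adjusted p = 0.00039), while LBR changed by -0.49 and LEMD3 by -0.50 in the same arrays. In this comparison of day 6 with day 2 under DMSO, 33.7% of all probe sets were called, and 3 of 6 genes. The other lines had 0 of 6 called, with 8.93% of probe sets called in WSU_DLCL2, 2.58% in SUDHL6 and 0.00261% in PFEIFFER. By unadjusted p below 0.05 the counts were 1, 2 and 0 of 6. The actin difference of the KARPAS_422 DMSO arrays moved from -0.03 on day 2 to 1.25 on day 6, and its part in these shifts was not tested.

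LBR, the lamin B receptor (201795_at, chromosome 1, 225401502 to 225428821), joins lamin B and heterochromatin to the membrane and is also a sterol reductase. Its changes were smaller than those of LMNB1 but its replicates were tight. In KARPAS_422 on day 6 the DMSO arrays read 11.12, 10.99 and 11.14, the LCC arrays 10.84, 10.69 and 10.69, and the 10xLCC arrays 10.65, 10.37 and 10.39. The groups followed dose without overlap, and the change at 10xLCC was -0.62 (SE 0.09, 1.53-fold lower, adjusted p = 7.3e-06). In WSU_DLCL2 on day 6 DMSO gave 12.62, 12.74 and 12.67 and 10xLCC 12.19, 12.19 and 12.27, a 1.38-fold fall (-0.46, SE 0.07, adjusted p = 1.7e-05). SUDHL6 gave 12.62, 12.63 and 12.63 against 12.37, 12.45 and 12.4 (-0.22, SE 0.08, adjusted p = 0.028). That SUDHL6 call did not hold under another scaling: with each array centred on its bright probe sets the change was -0.06 (adjusted p = 0.6), and it was also lost without any one of 5 of the 6 arrays. PFEIFFER gave 12.2, 12.11 and 12.2 against 11.97, 11.94 and 11.98, groups that did not overlap, with a change of -0.21 (SE 0.12) that was not called.

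TMPO encodes the LAP2 proteins, of which the membrane isoforms bind lamin B and the alpha isoform binds A-type lamins. Its brightest probe set, 224944_at (chromosome 12, 98515573 to 98550351), read 11.84, 12.12 and 11.89 under DMSO in WSU_DLCL2 on day 6, 11.14, 11.21 and 11.02 at LCC, and 10.77, 10.8 and 11.0 at 10xLCC. The control and both treated groups did not overlap, and the 10xLCC change was -1.09 (SE 0.10, 2.14-fold lower, adjusted p = 2.1e-09). It had the same size on day 4 (-1.16, SE 0.10, 2.24-fold lower, adjusted p = 8.2e-10), with DMSO at 11.87, 11.95 and 11.83 and 10xLCC at 10.44, 10.78 and 10.94. KARPAS_422 on day 6 gave 11.42, 11.36 and 11.53 under DMSO, 11.25, 10.87 and 10.17 at LCC and 10.47, 10.06 and 10.16 at 10xLCC. The LCC and 10xLCC arrays overlapped there, and the 10xLCC change was 2.31-fold (-1.21, SE 0.16, adjusted p = 1.3e-06), or -0.8 with the actin difference as a covariate. That covariate fit has the limit given for LMNB1, since the actin values of the DMSO and 10xLCC groups did not overlap. SUDHL6 fell less in this probe set, from 12.34, 12.4 and 12.27 to 11.96, 12.01 and 11.8 (-0.41, SE 0.08, 1.33-fold, adjusted p = 0.00015). With the actin covariate the change was also -0.41, with adjusted p = 0.23. PFEIFFER gave 11.65, 11.66 and 11.71 against 11.47, 11.41 and 11.52, separate groups with a change of -0.21 (SE 0.11) that was not called.

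**Figure D2:**
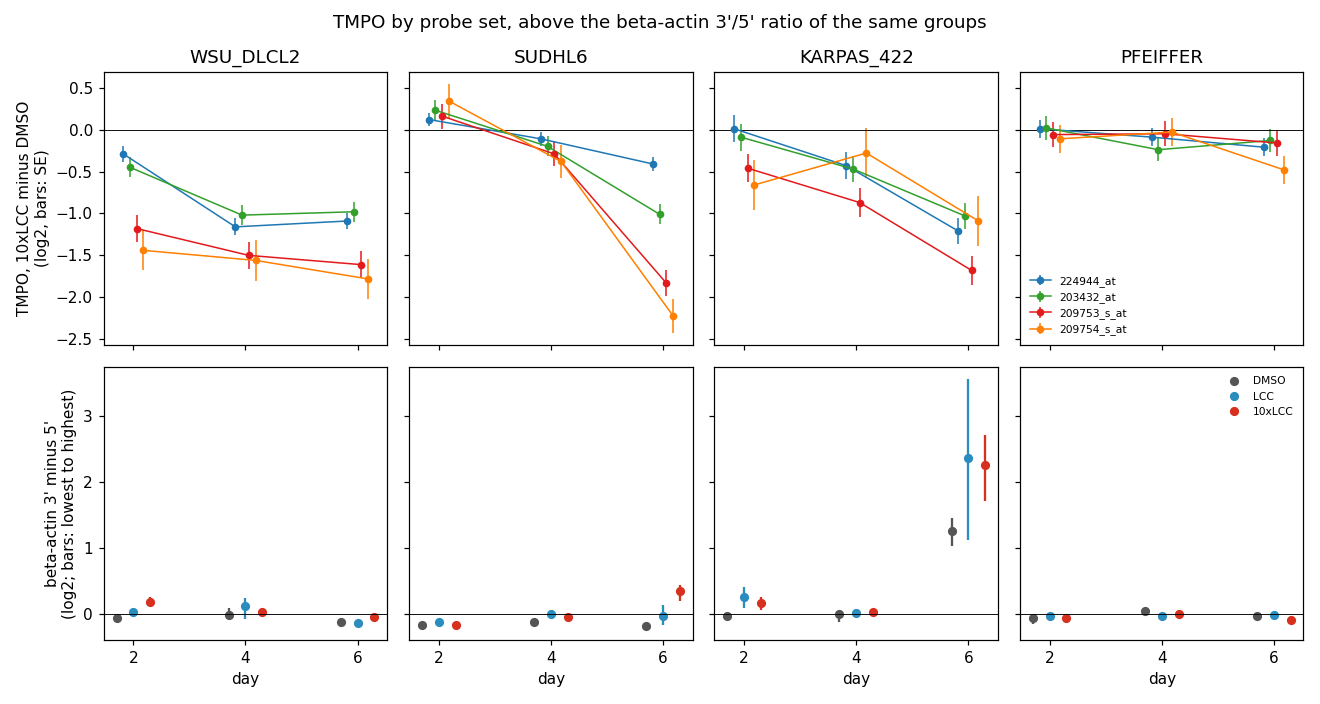
Upper panels plot the change of the 4 brighter TMPO probe sets at 10xLCC against DMSO (log2, y axis, bars for SE) by day (x axis) in each line, and lower panels the mean beta-actin 3 prime minus 5 prime difference (log2, bars from the lowest to the highest of 3 arrays). On day 6 the SUDHL6 changes run from -0.41 for 224944_at to -2.22 for 209754_s_at.

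On day 6 the 4 brighter TMPO probe sets differed in the size of their change at 10xLCC, not in its direction. In SUDHL6 the changes were -0.41 for 224944_at, -1.01 for 203432_at, -1.83 for 209753_s_at and -2.22 for 209754_s_at, the last with DMSO at 10.06, 9.94 and 9.71 and 10xLCC at 7.61, 7.89 and 7.54. Thus the same gene read 1.33-fold lower by one probe set and 4.67-fold lower by another. WSU_DLCL2 gave -0.98 for 203432_at, -1.61 for 209753_s_at and -1.78 for 209754_s_at, and KARPAS_422 gave -1.03, -1.68 and -1.09. All 3 of these probe sets were called in all 3 lines. On day 2 in WSU_DLCL2 they were already called at -0.45, -1.18 and -1.44. In PFEIFFER they read -0.13, -0.16 and -0.48 on day 6 and were not called. 237863_at, the dimmest, was called lower in SUDHL6 on day 6 (-0.67). In DMSO arrays of KARPAS_422, 209754_s_at fell by 2.09 between day 2 and day 6, from 8.69, 8.55 and 8.55 to 6.5, 6.49 and 6.54. The change of 224944_at over those days was -0.14 (SE 0.16). Over 36 group means centred on their line, which share the same arrays, the 4 brighter TMPO probe sets correlated with Pearson r from 0.83 to 0.96. The order of the changes by probe set differed between lines and was not tested against transcript isoforms.

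LEMD3 (218604_at, chromosome 12, 65169583 to 65248355), also called MAN1, binds lamins and dampens TGF-beta signalling through SMADs. It was not called on day 6 in any line. In KARPAS_422 its DMSO arrays read 9.53, 9.42 and 9.67 and its 10xLCC arrays 9.48, 9.41 and 9.59, and in WSU_DLCL2 they read 10.1, 10.05 and 9.95 against 10.17, 9.83 and 10.11. Both pairs of groups overlapped, with changes of -0.04 (SE 0.11) and 0.00 (SE 0.11). In SUDHL6 the arrays read 10.52, 10.3 and 10.29 against 10.19, 10.11 and 10.04, a change of -0.25 (SE 0.12, adjusted p = 0.097), which was called without the day 2 DMSO array that stood apart (adjusted p = 0.021). The only call at 10xLCC was WSU_DLCL2 on day 4 (-0.32, SE 0.11, adjusted p = 0.032), where 9.86, 10.38 and 10.35 under DMSO overlapped 9.86, 9.75 and 10.03. That call was lost without DMSO replicate B (-0.23, adjusted p = 0.19), among other arrays.

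LMNA (chromosome 1, 156082573 to 156140081), the gene of the A-type lamins, gave readings that depended on the probe set. The brightest, 212089_at, was not called in any contrast of treated with control arrays. On day 6 in WSU_DLCL2 it read 7.84, 7.55 and 7.97 under DMSO and 7.91, 8.3 and 7.65 at 10xLCC, and in KARPAS_422 7.64, 7.89 and 7.73 against 7.94, 8.08 and 7.99. The first pair overlapped and the second did not (0.25, SE 0.11, adjusted p = 0.07), and with arrays centred on bright probe sets the second became 0.48 with adjusted p = 0.0063. By contrast 1554600_s_at rose in KARPAS_422 on day 4, from 6.61, 6.58 and 6.68 to 7.53, 7.13 and 7.23 (0.67, SE 0.10, adjusted p = 1.9e-05). In WSU_DLCL2 the same probe set rose by 0.32, 0.36 and 0.38 on days 2, 4 and 6, and 203411_s_at by 0.25, 0.36 and 0.28. The day 6 calls rested on 6.37, 6.38 and 6.37 against 6.68, 6.92 and 6.67 for 1554600_s_at. In SUDHL6 and PFEIFFER no LMNA probe set was called at either dose. Other settings pointed both ways on day 6: in SUDHL6 212089_at was called lower after a second quantile normalisation (-0.37, adjusted p = 0.0042), and in WSU_DLCL2 the mean of the LMNA probe sets was called higher (0.28, adjusted p = 0.0047).

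**Figure D3:**
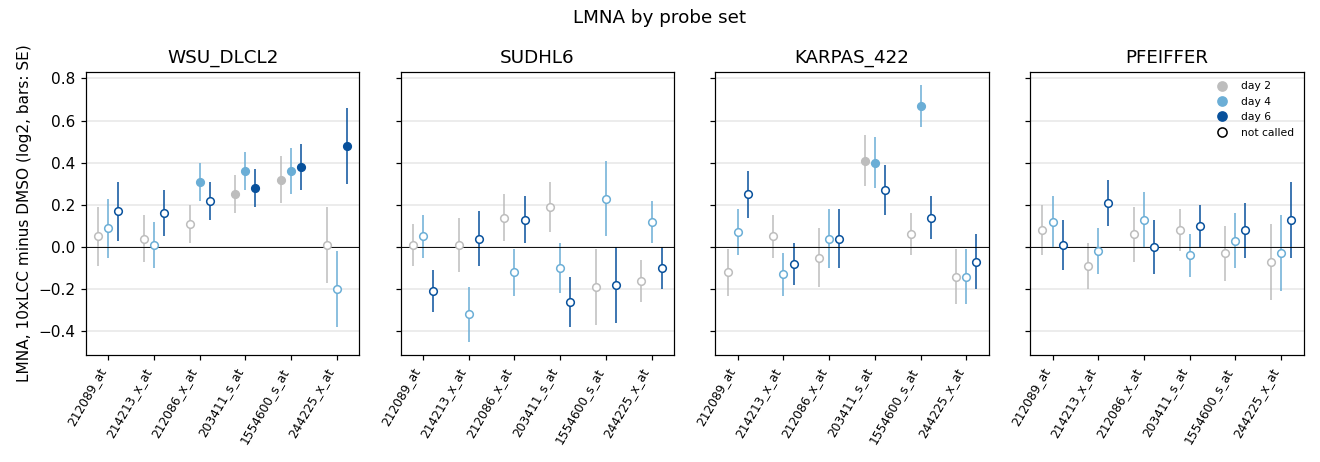
Change of the LMNA probe sets at 10xLCC against DMSO (log2, y axis, bars for SE) for each probe set (x axis) in each line, coloured by day and filled where called. Filled points above 0 occur in WSU_DLCL2 and KARPAS_422 for 1554600_s_at and 203411_s_at, and 212089_at has none. In WSU_DLCL2 another probe set is also filled above 0 on days 4 and 6, on day 4 212086_x_at.

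Counted by probe set, with 14 tested in WSU_DLCL2 and 15 in KARPAS_422, 7 fell in each line on day 6, as did 7 of 15 in SUDHL6. The rising ones in WSU_DLCL2 numbered 2 on day 2, 3 on day 4 and 3 on day 6, all of LMNA, beside 10.9%, 17% and 14.7% of all probe sets. The day 4 count includes 212086_x_at, at 7.1, 7.22 and 7.05 under DMSO and 7.44, 7.4 and 7.47 at 10xLCC. KARPAS_422 had 1 on day 2 (3.79% of all) and 2 on day 4 (9.3% of all). At LCC, 1 probe set rose in WSU_DLCL2 on day 6 (5393 of 38095 over all) and 1 in KARPAS_422 on day 4 (1705 of 38231). The 6 LMNA probe sets did not read alike: 212089_at correlated with the other 5 at r from 0.20 to 0.46 over 36 group means, while 203411_s_at and 1554600_s_at correlated at 0.76.

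The same contrasts were followed over days. At 10xLCC, WSU_DLCL2 had 2 of 6 genes lower on day 2 (LBR and TMPO, with 15.4% of all probe sets lower) and 4 of 6 on day 4 (LMNB1, LBR, TMPO and LEMD3, with 14.3%). The day 2 calls were small, -0.24 for LBR and -0.29 for TMPO, and centring on bright probe sets left -0.11 and -0.17. The actin difference stood at -0.07 under DMSO and 0.17 at 10xLCC there, and with it as a covariate neither was called (adjusted p = 0.085 and 0.094), while LMNB1 went from -0.46, not called, to -0.98 (adjusted p = 0.0074). KARPAS_422 had 0 of 6 on day 2 (2.25% of all, and 0 of 6 at unadjusted p below 0.05) and 3 of 6 on day 4 (LMNB1, LMNB2 and LBR, with 13.9%). TMPO was at -0.43 on that day (adjusted p = 0.061), and was called under 5 other settings, such as -0.45 (adjusted p = 0.013) when its probe sets were averaged. SUDHL6 had 0 of 6 on day 2 (0.687% of all, and 0 of 6 at unadjusted p below 0.05) and 2 of 6 on day 4, LMNB2 at -0.39 and LBR at -0.28, beside 9.05%. Both SUDHL6 day 4 calls were lost when arrays were centred on bright probe sets, at -0.28 and -0.17. PFEIFFER had 0 of 6 on each day, beside 0.00261%, 0.0417% and 0.164% of all probe sets called in either direction, with 0, 1 and 0 of 6 at unadjusted p below 0.05.

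The change itself grew from day 2 to day 6 by limma's test of the difference. In KARPAS_422, 4 of 6 genes had a lower 10xLCC change on day 6 than on day 2 (7.57% of all probe sets did), with LMNB1 at -2.36 (SE 0.37), TMPO at -1.22, LMNB2 at -1.2 and LBR at -0.54. WSU_DLCL2 had 3 of 6 (5.68% of all), with LMNB1 at -1.25, LMNB2 at -1.01 and TMPO at -0.81. SUDHL6 had 1 of 6, TMPO at -0.53, where 20.6% of all probe sets did. In KARPAS_422 the actin difference was -0.03 under DMSO and 0.16 at 10xLCC on day 2, and 1.25 and 2.25 on day 6. LMNB2 there averaged 8.85 and 9.5 under DMSO on these days, and 8.85 and 8.29 at 10xLCC. In WSU_DLCL2 the day 2 change of LMNB1 was -0.46, or -0.98 with the actin covariate. The actin difference in SUDHL6 at 10xLCC was -0.17 on day 2 and 0.34 on day 6. The part of RNA shortening in this growth was not tested.

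**Figure D4:**
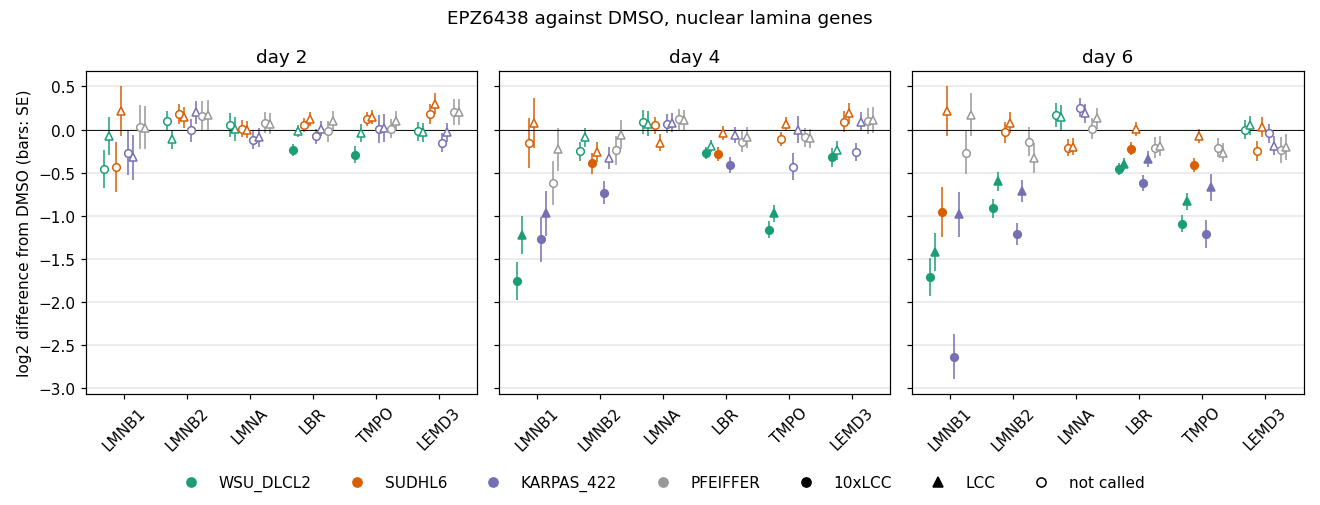
Change of the 6 genes (x axis) at LCC (triangles) and 10xLCC (circles) against DMSO (log2, y axis, bars for SE) in a panel for each day, coloured by line and filled where called. On day 6 at 10xLCC the filled circles are LMNB1, LMNB2, LBR and TMPO in WSU_DLCL2 and KARPAS_422, LMNB1, LBR and TMPO in SUDHL6, and none in PFEIFFER.

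The lower dose gave part of these changes. At LCC on day 6, 4 of 6 genes were called in WSU_DLCL2 and 4 of 6 in KARPAS_422, all lower, beside 24.4% and 22.2% of all probe sets called in either direction. LMNB1 was at -1.42 in WSU_DLCL2 and at -0.98 in KARPAS_422, but the latter was -0.57 with adjusted p = 0.099 without LCC replicate B. TMPO was at -0.83 and -0.67, LMNB2 at -0.60 and -0.71, and LBR at -0.40 and -0.34 in those lines. In KARPAS_422 the actin difference was 1.25 under DMSO and 2.37 at LCC. With it as a covariate only LMNB2 was called there (-0.49, adjusted p = 0.028), with TMPO at -0.22 (0.35), LBR at -0.22 (0.21) and LMNB1 at -0.94 (0.069), and a fit of the 2 groups alone also left 1 call. Without LCC replicate C, TMPO was at -0.38 (adjusted p = 0.048). SUDHL6 had 0 of 6 called at LCC on day 6 (16% of all, and 0 of 6 at unadjusted p below 0.05), although the TMPO probe sets 209753_s_at (-0.59) and 209754_s_at (-0.60) were called. On day 4, WSU_DLCL2 had 2 of 6 called at LCC, LMNB1 at -1.22 and TMPO at -0.97, beside 27.9%. KARPAS_422 had 1, LMNB1 at -0.97 (adjusted p = 0.025), beside 6.47%, a call that was lost without any one of the 6 arrays. SUDHL6 had 0 of 6 (6.61%, and 1 of 6 at unadjusted p below 0.05). On day 2 at LCC, 0 of 6 were called in WSU_DLCL2 (5.01%), SUDHL6 (3.21%) and KARPAS_422 (3.82%), with 0, 1 and 0 at unadjusted p below 0.05. PFEIFFER had 0 of 6 at LCC on each day, where 0%, 0% and 0% of all probe sets were called. At unadjusted p below 0.05 PFEIFFER had 0, 0 and 1 of 6, the last of them TMPO at -0.27 on day 6 with the array that stood apart included.

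Set directly against LCC on day 6, 10xLCC was lower for 3 of 6 genes in SUDHL6 (14.8% of all probe sets), LMNB1 at -1.15, TMPO at -0.35 and LBR at -0.23. KARPAS_422 also had 3 of 6 (6.53% of all), LMNB1 at -1.65 (SE 0.26, adjusted p = 6.4e-05), TMPO at -0.53 and LMNB2 at -0.50. WSU_DLCL2 had 0 of 6 called (7.83% of all) and 2 of 6 at unadjusted p below 0.05, with LMNB2 at -0.31 (SE 0.11) and TMPO at -0.27 (SE 0.10). In SUDHL6 the actin difference was -0.03 at LCC and 0.34 at 10xLCC on that day. The dose contrast was not refitted with the actin covariate or another scaling.

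The lines were then compared. The 10xLCC change in PFEIFFER was higher than the mean of the other 3 lines for 1 of 6 genes on day 4 (TMPO, 0.48, beside 7.01% of all probe sets). On day 6 it was higher for 3 of 6 (LMNB1, 1.49; LMNB2, 0.58; TMPO, 0.7; beside 13.9%). For LBR that difference was 0.23 (SE 0.10, adjusted p = 0.08), for LEMD3 -0.14 (SE 0.15; -0.33 with arrays centred on bright probe sets, adjusted p = 0.0026) and for LMNA -0.06 (SE 0.13). Leaving out the PFEIFFER array at LCC on day 6 that stood apart raised the calls over all probe sets for 10xLCC in that line to 621 on day 4 and 553 on day 6, and 0 of 6 genes were called. On that array, replicate B, LMNB1 read 9.67, the lowest value of the line.

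Between SUDHL6 and KARPAS_422, on day 6 the change in SUDHL6 was less negative for LMNB1 (by 1.69), LMNB2 (1.18), TMPO (0.79) and LBR (0.4), and LMNA 212089_at differed by -0.46, so 5 of 6 were called where 26.8% of all probe sets were. WSU_DLCL2 and SUDHL6 differed in LMNB2 (-0.89) and TMPO (-0.68) on day 6, 2 of 6 beside 27.6%, and in LMNB1 (-1.6) and TMPO (-1.05) on day 4, 2 of 6 beside 16.3%. TMPO is read in these comparisons by 224944_at alone. On day 6 the changes of 209753_s_at and 209754_s_at, given above, were more negative in SUDHL6 than in KARPAS_422 or WSU_DLCL2. Those of 203432_at were about alike in these lines. WSU_DLCL2 and KARPAS_422 differed in TMPO on day 4 (-0.73), 1 of 6 beside 19.7%. On day 6 these lines had 0 of 6 (21% of all, and 1 of 6 at unadjusted p below 0.05), and on day 4 SUDHL6 and KARPAS_422 had 0 of 6 (8.65% of all, and 1 of 6 at unadjusted p below 0.05). From DMSO to 10xLCC on day 6 the actin difference went from 1.25 to 2.25 in KARPAS_422 and from -0.18 to 0.34 in SUDHL6. In WSU_DLCL2 it went from -0.12 to -0.05, and in PFEIFFER from -0.04 to -0.1. Comparisons between lines were not refitted with the actin covariate, and the part of RNA shortening in them was not tested.

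Without treatment the lines differed most in LBR and TMPO. Over 9 DMSO arrays per line LBR averaged 12.67 ± 0.10 (SD) in SUDHL6, 12.66 ± 0.07 in WSU_DLCL2, 12.15 ± 0.07 in PFEIFFER and 11.44 ± 0.28 in KARPAS_422, and every pair was called except SUDHL6 and WSU_DLCL2. KARPAS_422 lay 2.34-fold below SUDHL6. TMPO by 224944_at averaged 12.21 ± 0.13 in SUDHL6, 11.91 ± 0.09 in WSU_DLCL2, 11.55 ± 0.11 in PFEIFFER and 11.54 ± 0.13 in KARPAS_422. The last pair was not called apart by that probe set. KARPAS_422 averaged below PFEIFFER by 203432_at (10.06 against 10.7) and 209754_s_at (7.86 against 8.77), and above it by 209753_s_at (9.8 against 9.45). LMNB2 was higher in SUDHL6 (9.46 ± 0.16) than in the other lines (9.09 to 9.22), and LEMD3 was lower in KARPAS_422 (9.91 ± 0.29) than in the others (10.11 to 10.21). In KARPAS_422 the LEMD3 mean was 10.04 on day 2 and 10.14 on day 4, and 9.54 on day 6, when the actin difference was 1.25. LMNB1 ran from 10.73 ± 0.35 in PFEIFFER to 11.10 ± 0.36 in WSU_DLCL2, and only that pair was called (0.37, adjusted p = 0.047). LMNA by 212089_at had no pair called, at 7.75 to 7.84. Other LMNA probe sets spread further: 203411_s_at averaged from 6.99 in SUDHL6 to 7.39 in KARPAS_422, and 1554600_s_at from 6.22 in WSU_DLCL2 to 6.66 in KARPAS_422. In pairs, 2 of 6 genes were called between WSU_DLCL2 and SUDHL6 (43.2% of all probe sets), 3 between WSU_DLCL2 and KARPAS_422 (49.1%), 3 between WSU_DLCL2 and PFEIFFER (50.9%), 4 between SUDHL6 and KARPAS_422 (55.7%), 3 between SUDHL6 and PFEIFFER (52.9%) and 2 between KARPAS_422 and PFEIFFER (57.2%).

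Across the 36 group means centred on their line, LMNB1 correlated with TMPO at r = 0.86, with LBR at 0.79, with LMNB2 at 0.65 and with LMNA at -0.61. LMNA was read here by 212089_at alone, which spanned only 7.47 to 8.3 over all arrays. That probe set correlated with the other LMNA probe sets at r from 0.2 to 0.46. LBR correlated with TMPO at 0.85 and with LEMD3 at 0.76. In the 9 PFEIFFER groups alone, LMNB1 and TMPO gave -0.08. These values share arrays, doses and days and are descriptive. Of 18686 genes, those most like TMPO were PCNA (0.99), KIF11 (0.98), ANP32E, RRM1 and TYMS (0.97 each), and those most like LMNB1 were AP1S1, TPX2 and MSH6 (0.94 each) and CDCA7 and PRR11 (0.93 each). LBR was closest to PTMA (0.97), then RAD23B, HNRNPR, MCM6 and LDHA (0.95 each). LMNB2 was closest to PTBP1 (0.95) and NAA15 (0.93), followed by CNOT9, NT5DC2 and BAZ1B (0.92 each). LEMD3 was closest to SGCE (0.89), SINHCAF and PJA2 (0.88 each), NIPSNAP2 and OPA1 (0.87 each), and LMNA to SP6 (0.82), CCL19 (0.81), LTBP2 (0.78), IFT140 (0.76) and MIATNB (0.75).

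Other genes of the envelope were counted at 10xLCC on day 6, each by its brightest probe set. Of 30 nuclear pore genes, 29 fell in WSU_DLCL2, 19 in SUDHL6, where 2 rose, and 23 in KARPAS_422. NUP155, a scaffold nucleoporin, changed by -1.19, -1.91 and -1.06 in that order of lines, NUP37 by -1.03, -1.61 and -1.38, NUP35 by -0.87, -1.30 and -1.06, and NUP93 by -1.02, -0.55 and -1.32. The list median was -0.6, -0.4 and -0.58, against medians of 0, -0.11 and -0.03 over all probe sets. For these and the following lists, the share of all probe sets that fell was 19.6%, 26.6% and 17.6% in WSU_DLCL2, SUDHL6 and KARPAS_422, and the share that rose was 14.7%, 20% and 16.8%.

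Inner nuclear membrane and LINC complex genes moved both ways: of 19, 3 rose and 8 fell in WSU_DLCL2, 8 rose and 3 fell in SUDHL6, and 5 rose and 5 fell in KARPAS_422. NRM, which encodes nurim, changed by -0.90, -0.73 and -1.12 in the same order, and TMEM201 (SAMP1) by -0.92, -0.67 and -1.13. SYNE2, which links the envelope to the cytoskeleton, rose by 0.50, 0.99 and 0.48. Of 6 lamin maturation genes, 3 fell in WSU_DLCL2, 2 fell and 2 rose in SUDHL6, and 3 fell in KARPAS_422. ICMT, which methylates the prenylated lamin tail, changed by -0.72, -0.91 and -0.99, and ZMPSTE24, which cleaves prelamin A, changed by -0.59, -0.87 and -0.70.

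Of 8 chromatin partners of the lamina, 5 fell in WSU_DLCL2, 3 fell and 2 rose in SUDHL6, and 5 fell and 1 rose in KARPAS_422. CBX1 (HP1 beta), which binds LBR, changed by -0.76, -0.73 and -1.02, and GMCL1 changed by -0.89 in SUDHL6, with -0.21 and -0.19, not called, in the other lines. Of 20 genes of envelope breakdown and reassembly in mitosis, 12 fell in WSU_DLCL2, 11 in SUDHL6 and 11 in KARPAS_422, with 3, 2 and 3 rising. PLK1, a mitotic kinase, changed by -1.41, -1.09 and -1.95, and VRK1, which phosphorylates the chromatin bridging protein BANF1, by -1.53, -1.28 and -1.37. CDCA2 changed by -1.39, -1.14 and -1.75 and cyclin B1 (CCNB1) by -1.21, -1.15 and -1.85.

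**Figure D5:**
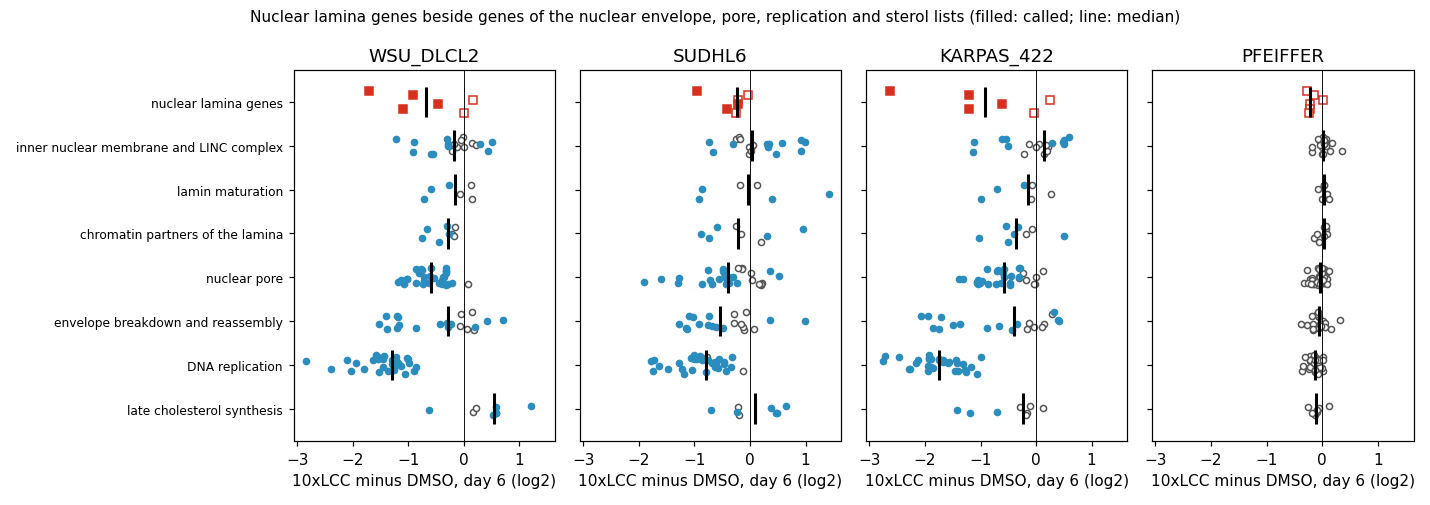
Change at 10xLCC against DMSO on day 6 (log2, x axis) for each gene of the lamina set and of 7 lists (rows) in the 4 lines, filled where called, with a vertical bar at the list median. The DNA replication medians are -1.3 in WSU_DLCL2, -0.79 in SUDHL6, -1.75 in KARPAS_422 and -0.12 in PFEIFFER.

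The DNA replication genes, which mark cells making DNA, fell in the same bulk samples as LMNB1, LBR and TMPO. All 31 fell in WSU_DLCL2 and in KARPAS_422 and 29 of 31 fell in SUDHL6, with medians of -1.3, -1.75 and -0.79, and the PFEIFFER median was -0.12. MCM10 changed by -2.85, -1.79 and -2.75 in WSU_DLCL2, SUDHL6 and KARPAS_422, CDC6 by -2.40, -1.47 and -2.27, ORC1 by -2.10, -1.73 and -2.12 and POLE2 by -2.04, -1.74 and -1.94. Their part in the change of LMNB1, TMPO and LBR was not tested. LBR also catalyses a step of cholesterol synthesis, and of 8 genes tested from that late pathway 5 rose and 1 fell in WSU_DLCL2, 4 rose and 2 fell in SUDHL6, and 3 fell in KARPAS_422. TM7SF2, which encodes an enzyme with the same reductase activity as LBR, rose by 1.21 and 0.64 in WSU_DLCL2 and SUDHL6 and read -0.11, not called, in KARPAS_422. DHCR7 rose by 0.57 and 0.48 in the first lines and fell by 1.19 in KARPAS_422. EBP, the only gene of this list called the same way in all 3 lines, changed by -0.63, -0.71 and -1.42 in WSU_DLCL2, SUDHL6 and KARPAS_422. No gene of these lists was called in PFEIFFER on day 6.

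Scaling shifted the split of calls over all probe sets. With arrays centred on bright probe sets the median change of all probe sets at 10xLCC on day 6 moved by 0.17 in WSU_DLCL2, 0.16 in SUDHL6 and 0.23 in KARPAS_422. The share of calls that fell moved from 57.2% to 33.3%, from 57.1% to 37.3% and from 51.2% to 25%. On day 4 it moved from 51.7% to 31.5% in SUDHL6 and from 59.9% to 34% in KARPAS_422. On that scale LMNB1 was at -1.55, -0.79 and -2.4 and TMPO at -0.93, -0.26 and -0.98, all still called. LMNB2 was at -0.75 in WSU_DLCL2 and -0.98 in KARPAS_422, and LBR at -0.3 and -0.38, also called.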

How the data were processed

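Total RNA of each sample was labelled with biotin and hybridised to 1 array, per the labels' protocols. The authors deposited linear intensity values that had been background-corrected, normalised and summarised per probe set with GCRMA, per the submitters' processing notes, version not given in the sources used here. Of 54675 probe sets, 41097 had 1 annotated gene, 1801 several and 11777 none, and 19735 of 19775 gene symbols matched RefSeq (GRCh38.p14), which gave positions and promoters. Values were taken as log2 with pseudocount 0. In each line, probe sets at log2 4 or more on at least 3 of 27 arrays were fitted with limma 3.58.1 (lmFit and eBayes, R 4.3.3), with 9 group means. A second fit over all arrays compared lines. Adjusted p is Benjamini-Hochberg over all probe sets of a fit, called below 0.05. The number of arrays limits the precision, since an exact test of 3 against 3 cannot go below p = 0.1. Figures used Python 3.11.15 and matplotlib 3.10.9. The fit was tested on simulated data. Genes named were all members, up to 4 per list called the same way in all 3 Y641 lines with the largest mean change (otherwise the 2 with the smallest p), and the 5 most correlated genes per member. EBP was named in addition. The members and lists were chosen with earlier results of these data known. Alternatives were the filter, the probe set summary, scaling, pseudocount 16, the variance model, the arrays fitted, replicate blocks, an actin covariate and each array left out.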

Additional observations from a re-analysis of the deposited data

Results flagged for a closer look

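Each value below is a difference between 2 changes at 10xLCC against DMSO, tested with limma as an interaction contrast and called at adjusted p below 0.05. Between day 6 and day 2 within a line, the change in LMNB1 differed by -1.25 in WSU_DLCL2 (SE 0.31, adjusted p = 0.0074) and by -2.36 in KARPAS_422 (SE 0.37, adjusted p = 4.8e-05). LMNB2 differed by -1.01 in WSU_DLCL2 and by -1.2 in KARPAS_422. LBR differed by -0.54 in KARPAS_422. TMPO differed by -0.81 in WSU_DLCL2, -0.53 in SUDHL6 and -1.22 in KARPAS_422. In KARPAS_422 the actin difference rose between these days, as given above, and its part in these values was not tested.

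Between PFEIFFER and the mean of the other 3 lines, the change in TMPO differed by 0.48 on day 4 and by 0.7 on day 6, that in LMNB1 by 1.49 on day 6 and that in LMNB2 by 0.58 on day 6. Between WSU_DLCL2 and SUDHL6, LMNB1 differed by -1.6 and TMPO by -1.05 on day 4, and LMNB2 by -0.89 and TMPO by -0.68 on day 6. Between WSU_DLCL2 and KARPAS_422, TMPO differed by -0.73 on day 4. Between SUDHL6 and KARPAS_422 on day 6, LMNB1 differed by 1.69, LMNB2 by 1.18, TMPO by 0.79, LBR by 0.4 and LMNA by -0.46. TMPO is read in these values by 224944_at alone, and on day 6 its other probe sets ordered the Y641 lines differently, as given above. The dose named LCC was set for each line, so the doses behind these differences between lines are not matched in concentration. The actin difference on day 6 also moved unlike between lines, and its part in these values was not tested.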

How the results depend on the processing

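For single genes, 1679 of 1728 values under other settings kept their side of the threshold, 27 lost the call, 22 gained it and 0 called values changed sign. Small values without a call did, such as LMNB2 in SUDHL6 on day 6 at 10xLCC, from -0.03 to 0.13 under centring. With 1 array left out the counts were 822, 30 and 12 of 864. Most of these values were not called in the main fit, among them all of PFEIFFER, so lost calls are a larger share of the called values. In SUDHL6 on day 6 at 10xLCC, the actin covariate gave LMNB1 -2.07, LBR -0.28 and TMPO -0.41, with 0 of 6 genes called against 3. For LBR in SUDHL6, centring on bright probe sets gave -0.06, a second quantile normalisation -0.01 and a fit of the 2 groups alone -0.22, all without a call. With 1 array left out, LBR in SUDHL6 ran from -0.24 to -0.2, LMNB1 from -1.15 to -0.6 and the genes called from 1 to 3. The cause was not tested. The replicate letters did not pair the arrays: in 0 of 24 comparisons were all 3 correlations above 0.1. With the replicate letter as a block the genes called on day 6 at 10xLCC were 4 in WSU_DLCL2, 3 in SUDHL6, 4 in KARPAS_422 and 0 in PFEIFFER, as without it, and probe sets called in WSU_DLCL2 went from 13058 to 12882. Probe sets near background, such as the dimmest of TMPO and LMNA, limit what small changes can be read.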
